A study of Mus musculus with 38 samples.

Results

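The cell lines VIM-3039 and VM-3055 were set side by side without doxycycline (Dox), the drug that switches on the MYC transgene of these cells, in 4 libraries of each line. These are 8 of the 38 mouse libraries of the series, and they were chosen by their labels alone. VM-3055 cells have the genotype Vhl-/-; MYC + and VIM-3039 cells the genotype Vhl-/-; MYC +; Ink-/-/Arf-/-, so the Vhl deletion and the transgene are shared and the stated difference is the loss of Ink4a/Arf, the locus of Cdkn2a. Each line was grown from a kidney tumour of a mouse of that genotype. In those mice, per the study's methods, KspCad promoters (kidney-specific cadherin) drove both the rtTA that activates Tet-O-Myc and the tamoxifen-dependent Cre that deletes Vhl, and Ink4a/Arf was missing from the germline. The cells were derived and kept in Dox, and for these libraries they were plated without it and collected on the following day. The labels give genotype and replicate number, and the line numbers are the study's. Each genotype is represented by 1 line, so the genotype, the tumour of origin and the history in culture cannot be told apart, and nothing says that the 4 libraries of a line came from separate cultures, so p-values measure the spread between libraries only. The question put to the data was how far these lines differ when MYC is not induced.

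Vhl encodes the substrate receptor of a ubiquitin ligase that marks the hypoxia-inducible factors (HIF) for destruction, and its loss is a hallmark of clear cell renal carcinoma. Cdkn2a encodes p16Ink4a, which inhibits the cyclin D-dependent kinases, and p19Arf, which holds back MDM2 and so stabilizes p53. Epithelial to mesenchymal transition (EMT) is the process in which epithelial cells give up junctions and polarity and take up contractile and matrix-producing traits, and it is driven by transcription factors of the Snail, Twist and Zeb families. Kidney tubules themselves arise from mesenchyme during development.

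The deposited values are RSEM estimates that the authors scaled to an upper quartile of 1000 in each library, called units here. The worth of 1 read was read off the low values, which gave 15.1 to 36.6 M estimated reads for the VM-3055 libraries and 12.4 to 17.2 M for the VIM-3039 libraries, with VM-3055 replicate 2 the deepest. A level of 3 reads was used as a floor and lay between 1.16 and 3.34 units in the 8 libraries. The 10 most abundant genes held 4.12% to 4.34% of all units in VM-3055 and 6.60% to 6.94% in VIM-3039 libraries, and fibronectin (Fn1) led in both lines with 114419 and 196625 units on average. In both lines the levels of the renal epithelial markers Pax8 (3784 and 2573 units, VM-3055 first) and Cdh16 (9009 and 7335) were high. All 8 epithelial markers were tested, with a summed level of 15505 to 16201 units in VM-3055, against 12472 to 13444 in VIM-3039, and Krt18 was called higher and Epcam lower in VIM-3039. Over all tested genes, 9.21% were called higher and 12.5% lower, by the rule given below. Of the 12 fibroblast markers Thy1, Lum and Fap were at or near 0 in every library. The 9 tested had a median log2 difference of 0.39. Called higher were 4, among them Pdgfrb, Col1a1 and Col3a1, and called lower were 2, Col1a2 and Pdgfra. The summed level, mostly S100a4, was 4807 to 5464 units in VM-3055, against 3054 to 3374 in VIM-3039. Endothelial markers summed to 37.9 to 58.1 and 65.3 to 74.02 units, with Cdh5, Kdr, Tek, Tie1 and Emcn at or near 0. Leukocyte markers summed to 1146 to 1212 and 602 to 685 units, mostly Csf1r (859 and 378) and Cd14, with 4 of 8 tested called lower, while Cd3e and Emr1 were at 0 and Ptprc was at 58.3 and 12.02. Of the 6 smooth muscle markers 4 were called higher in VIM-3039, with sums of 401 to 503 against 14891 to 16784 units, but Myh11 and Des stayed near 0. In bulk RNA, fewer cells that express a gene and less of its RNA per cell cannot be told apart.

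The engineered genes were examined first. Cdkn2a (chr4:88920377-88940557, minus strand, mouse build NCBIM37, the mm9 assembly of the files) was at 4752, 4772, 5701 and 5425 units in the 4 VM-3055 libraries and at 40.8, 31.2, 28.6 and 35.7 units in the 4 VIM-3039 libraries. It was high in every VM-3055 library and 152-fold lower in VIM-3039, with a log2 difference of −7.21 ± 0.095 (SE, limma, adjusted p = 1.8e-18, n = 4 per line). An exact permutation test (two-sided) gave p = 0.0286, and 4 libraries against 4 allow none smaller. Values are per gene, so p16Ink4a and p19Arf transcripts are not separated. MYC-2983 cells without Dox, which carry the transgene only, had 3332 to 3744 units, and wild-type kidney had 0 to 3.80.

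Vhl was low in both lines, at 25.6, 35.3, 38.8 and 24.3 units in VM-3055 and 9.49, 15.6, 18.4 and 24.9 units in VIM-3039, against 526 to 543 in MYC-2983 cells. The lines overlapped by 1 library and the difference of −0.87 ± 0.26 on the log2 scale (adjusted p = 0.0079, limma; exact permutation p = 0.0571, n = 4 per line) missed the size of 1 that a call requires. Without VIM-3039 replicate 4 it was −1.07 and called. Myc was at 1364 ± 46.5 units in VM-3055, against 1479 ± 65.4 in VIM-3039 (SD, n = 4), a log2 difference of 0.12 ± 0.045 that was not called (exact permutation p = 0.0857). Wild-type kidney had 40.7 to 119 units of Myc. Whether reads from the transgene count toward Myc is not stated. In VIM-3039 the 3 engineered genes summed to 1430 to 1579 units without Dox and 399 to 484 with Dox, so the Myc value was lower with Dox there. Vhl and Cdkn2a had the levels that the labels of these libraries describe.

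Without Dox, 14461 genes were tested with limma on log2(value + 1). Levels written as a change from one value to another are means of the 4 libraries, VM-3055 first. A gene was called with an adjusted p under 0.05 and a log2 difference of more than 1. Of these genes 1332 (9.21%) were called higher in VIM-3039 and 1809 (12.5%) lower, and the median difference of all tested genes was −0.073. The 4 libraries of each line lay close together, and the first principal component, which separated the lines, held 94.3% of the variance. The libraries of the lines did not overlap for a large share of all genes. All 4 VIM-3039 libraries were above all 4 VM-3055 libraries for 25.9% of the tested genes, and the reverse held for 34.8%. All 20 genes with the largest differences, described next, were required not to overlap.

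The largest rises in VIM-3039 were Grb10, Lox, Col5a2, Asz1, Eras, Serpinh1, Acta2, Has2, Myl9 and Gulp1. Grb10 (chr11:11830511-11938686, minus strand), an imprinted adaptor that dampens insulin and IGF receptor signalling, was at 0, 1.16, 0 and 0 units in VM-3055 and at 6506, 6579, 6400.00 and 6261 units in VIM-3039. All VM-3055 libraries were at or under the floor of 3 reads, so Grb10 was at least 2433-fold higher in VIM-3039 (adjusted p = 1.6e-17). Lox, the lysyl oxidase that crosslinks collagen and elastin, was at 0.882, 0.388, 0 and 0 units in VM-3055 and at 6204, 5979.9, 5944 and 5811 in VIM-3039, at least 2262-fold higher (adjusted p = 3.3e-18). Col5a2, a chain of the fibrillar collagen V, was at 4.41, 7.37, 4.65 and 7.60 units in VM-3055, against 13109, 12343, 12574 and 13088 in VIM-3039, a log2 difference of 10.87 ± 0.13. For these 3 genes VM-3055 was silent or nearly so, and the 4 VIM-3039 libraries agreed closely.

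Asz1 (chr6:18000964-18059061, minus strand), a germ cell gene needed for transposon silencing in the testis, was at 0 in all 4 VM-3055 libraries and at 1232, 1288, 1329.6 and 1135 units in VIM-3039. Eras (chrX:7501402-7505733, minus strand), an embryonic stem cell relative of the RAS genes, was at 0, 0.388, 0 and 0.76 and 1203, 1229, 1173 and 1226 units. Both were under the floor throughout VM-3055, so they were at least 471-fold and 457-fold higher in VIM-3039, and MYC-2983 cells without Dox had at most 0.656 and 0 units of them. Serpinh1, the collagen chaperone HSP47, was at 2.65, 2.71, 3.88 and 0.76 units in VM-3055, against 2772, 2732, 2909 and 3067 in VIM-3039, while MYC-2983 cells had 31012 to 33047. Has2, the main hyaluronan synthase, rose from 2.65 to 1865 units (9.02 ± 0.15 on the log2 scale), and Gulp1, an engulfment adaptor, was at 0 in all VM-3055 libraries and at 402, 447, 417 and 412 in VIM-3039. Eras, Has2 and Gulp1 overlap other annotated genes (Pcsk1n, Has2as and Gm16102), and since the counting is not stated to use strand, reads from opposite strands could not be told apart.

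**Figure D1:**
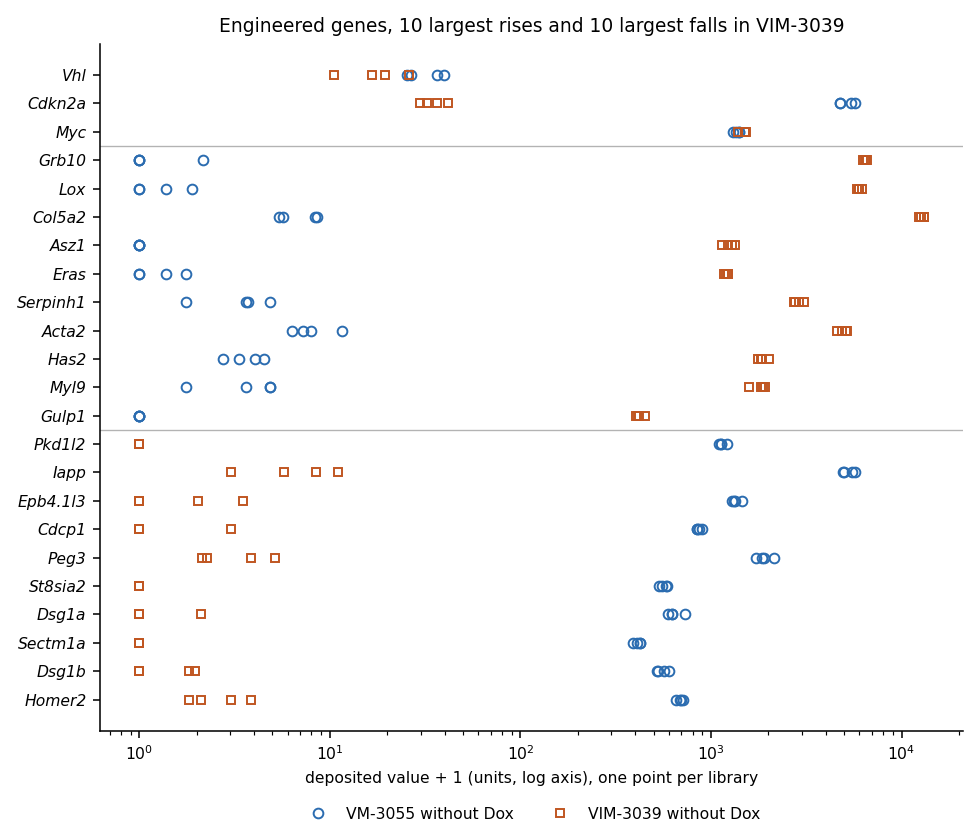
Deposited values plus 1 (units, log axis) of the engineered genes and of the 10 largest rises and falls in VIM-3039, with a circle for each VM-3055 library and a square for each VIM-3039 library without Dox. The 4 libraries of a line sit close together for the rises and falls, apart from values near 0, and Vhl and Myc are the genes where the lines overlap.

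The largest falls were Pkd1l2, Iapp, Epb4.1l3, Cdcp1, Peg3, St8sia2, Dsg1a, Sectm1a, Dsg1b and Homer2. Pkd1l2 (chr8:119519579-119606349, minus strand), a polycystin relative, was at 1133, 1098, 1205 and 1129.5 units in VM-3055 and at 0 in all 4 VIM-3039 libraries, at least 341-fold lower (adjusted p = 5.9e-18). Iapp, the islet hormone amylin, was at 4985, 5502, 5726 and 4899 units in VM-3055, against 4.75, 10.03, 2.04 and 7.47 in VIM-3039. Cdcp1, a transmembrane substrate of SRC kinases, was at 848, 893, 847 and 866 units in VM-3055 and at 0, 0, 2.04 and 0 in VIM-3039. VIM-3039 was close to silent for all 3 genes, and MYC-2983 cells had low levels too, with 0 to 0.658, 24.3 to 32.1 and 3.29 to 7.22 units.

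Peg3 (chr7:6656603-6683132, minus strand), an imprinted zinc finger gene, was at 1896, 2148, 1717 and 1860.4 units in VM-3055 and at 2.85, 1.27, 1.13 and 4.15 in VIM-3039, a log2 difference of −9.25 ± 0.22. Epb4.1l3, a membrane skeleton protein of cell contacts, was at least 403-fold lower, and St8sia2, a polysialyltransferase, fell from 563 to 0 units. The desmosomal cadherins Dsg1a and Dsg1b had 643 and 552 units in VM-3055 and 0.279 and 0.445 in VIM-3039. They are close copies of each other, so the split of reads between them is uncertain. Homer2, a scaffold of calcium signalling, fell from 688 to 1.71 units, and here MYC-2983 resembled VM-3055 with 690.3 to 749 units. Pkd1l2, Iapp, St8sia2 and Homer2 overlap other annotated genes (Gm15395, Slco1a5, snoU109 and U6).

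Another view was given by genes that were at or under the floor in every library of 1 line and reached at least 50 units on average in the other. There were 42 such genes silent in VM-3055, 6 of them at 500 units or more in VIM-3039, and 39 silent in VIM-3039, 7 of them at 500 units or more in VM-3055. With Dox, 40 of the 42 and 32 of the 39 were at or under the floor in the same line as well. Among called genes with at least 50 units in the higher line, the MYC-2983 mean lay nearer to VIM-3039 for 534 of 792 genes (67.4%) that were higher in VIM-3039, and nearer to VM-3055 for 560 of 909 genes (61.6%) that were lower. In both directions the line with the lower level was more often the one that stood apart from MYC-2983, which is given as a description without a test.

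Contractile genes of smooth muscle and myofibroblasts had a median difference of 4.04 on the log2 scale, which of the other lists only the smooth muscle markers, drawn mostly from the same genes, exceeded, against −0.073 over all genes. Of the 12 members tested, 8 were called higher and 2 lower in VIM-3039, against 9.21% and 12.5% of all genes. Acta2, smooth muscle alpha-actin, was at 5.29, 6.98, 6.20 and 10.6 units in VM-3055 and at 5148, 4609.8, 4858 and 5094 in VIM-3039, 677-fold higher (log2 difference 9.26 ± 0.14, adjusted p = 6.0e-18). Myl9, the regulatory light chain of smooth muscle myosin, was at 2.65, 3.88, 3.88 and 0.76 units in VM-3055 and at 1913, 1579.7, 1818 and 1872 in VIM-3039, and Tagln, the actin-binding transgelin, rose from 415 to 10624 units. Every VIM-3039 library was far above every VM-3055 library for these 3 genes, and 25.9% of all tested genes had this order at any distance. The calponins Cnn1 and Cnn2 rose from 37.8 to 398 units and from 390.2 to 12374 units, and Lmod1, which nucleates actin filaments in smooth muscle, was at 0, 0.775, 0 and 1.52 against 106, 107, 101 and 134 units. The smooth muscle gamma-actin Actg2 rose from 1.21 to 101 units and the tropomyosin gene Tpm1 from 36186 to 75640.1 units. Mylk, the kinase that phosphorylates myosin light chains, went the other way, from 547 to 81.5 units (log2 difference −2.77 ± 0.14), and Tpm2 was low in both lines. In MYC-2983 cells without Dox, Acta2 was at 66773 to 71099.6 units and Myl9 at 5118 to 5615, above VIM-3039.

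The promoters of 3 of the genes called higher are shown, 250 bases before to 50 bases after the transcription start, from RefSeq on build GRCm38.p6, which is not the build of the expression files. The table matched 9 of the 12 contractile genes, with 10 promoters. They were searched for CArG-like elements, the type of site that serum response factor binds: CC, 6 bases of which at most 1 is G or C, and GG. This pattern reads alike on both strands, and the 3 genes are shown because their promoters hold it. It was found in 3 of the 10 contractile promoters and in 9.98% of all 32851 promoters in the table, and capitals mark the matches. The Acta2 window (chr19:34255324-34255623, minus strand) holds 2 and the Myl9 window (chr2:156775214-156775513, plus strand) 2, while the Cnn2 window (chr10:79988350-79988649, plus strand) holds 1. A match of letters is no measurement of binding, and no search was made outside these windows.
Acta2: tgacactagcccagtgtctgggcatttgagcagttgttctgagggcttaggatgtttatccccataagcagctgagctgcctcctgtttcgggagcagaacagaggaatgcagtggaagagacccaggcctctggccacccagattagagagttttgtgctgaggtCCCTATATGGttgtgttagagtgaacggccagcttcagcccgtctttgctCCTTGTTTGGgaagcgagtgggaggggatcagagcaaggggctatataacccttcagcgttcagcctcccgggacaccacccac
Myl9: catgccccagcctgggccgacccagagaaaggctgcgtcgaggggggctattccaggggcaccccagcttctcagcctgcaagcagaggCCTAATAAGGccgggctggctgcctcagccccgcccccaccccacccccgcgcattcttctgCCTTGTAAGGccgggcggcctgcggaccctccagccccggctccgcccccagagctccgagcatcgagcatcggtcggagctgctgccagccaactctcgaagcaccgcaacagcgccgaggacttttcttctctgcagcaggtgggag
Cnn2: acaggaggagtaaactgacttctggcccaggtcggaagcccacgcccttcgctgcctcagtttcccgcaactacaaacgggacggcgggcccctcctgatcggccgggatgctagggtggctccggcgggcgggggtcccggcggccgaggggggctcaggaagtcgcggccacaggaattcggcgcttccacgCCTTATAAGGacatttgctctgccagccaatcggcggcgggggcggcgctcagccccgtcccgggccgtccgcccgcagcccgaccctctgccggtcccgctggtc

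The differences in contractile genes were also compared between the media. 5 of the 12 members were called in the line by Dox interaction, all with a larger excess in VIM-3039 without Dox, against 2.35% of all genes in that direction. Myl9 was at 81.2, 103, 129.9 and 77.6 units in VIM-3039 with Dox, and its excess was 8.99 without and 6.40 with Dox on the log2 scale (difference 2.60 ± 0.39, adjusted p = 2.0e-05). VM-3055 values with Dox were at 0.739, 0, 0 and 0 units, under the floor in each library, so the log2 difference with Dox depends on the pseudocount. Actg2 and Lmod1, with 3.90 and 6.35 units in VIM-3039 with Dox, had interaction values of 3.51 and 3.40.

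**Figure D2:**
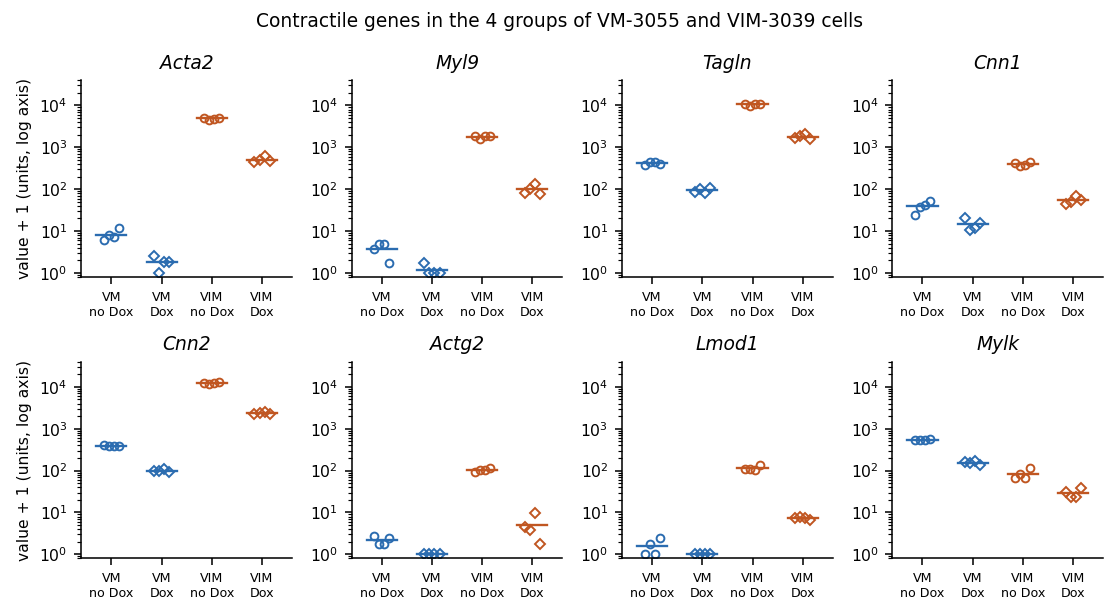
Values plus 1 (units, log axis) of 8 contractile genes in VM-3055 (blue) and VIM-3039 (orange) cells without Dox (circles) and with Dox (diamonds), a point per library and a line at the mean. Apart from Mylk, all 4 VIM-3039 libraries are above all 4 VM-3055 libraries in each medium, and mean levels without Dox are above those with Dox in both lines. The genes other than Mylk were drawn from the members called higher. Without Dox the same order held for 25.9% of all tested genes, and with Dox that share was not counted.

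Genes that build and crosslink the matrix formed the next group. Of 29 collagen genes tested, 11 were called higher and 4 lower in VIM-3039 (median 0.26), against 9.21% and 12.5% of all genes, so the share of lower calls was near that of all genes. The basement membrane chains Col4a1 and Col4a2 rose from 52.04 to 8340.2 units and from 492 to 7519 units, Col4a6 was at 0.882, 1.55, 0 and 0.76 against 277, 289.9, 261 and 326 units, and Col8a1, a short-chain collagen of vessel walls, rose from 4.06 to 864 units. Col4a1 and Col4a2, which are transcribed from a shared promoter, thus had log2 differences of 7.32 and 3.93. Other collagens went in different directions. Col1a2 fell from 650.1 to 97.4 units and Col6a1 and Col6a2 fell from 6268 to 2142 units and from 1441 to 465 units, while Col12a1 rose from 780.1 to 3897 units and Col1a1, at 22.4 and 59.5 units, was called higher from low levels.

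Of 11 lysyl oxidases and collagen hydroxylases, 6 were called higher (9.21% of all genes were) and 0 lower (12.5% of all genes). Loxl1, which acts on elastic fibres, was at 162, 158, 179 and 184 units in VM-3055, against 4128, 4104, 4089.8 and 4545 in VIM-3039, a 24.7-fold excess, and Loxl2 rose from 4800.1 to 14124 units (1.56 ± 0.041). Loxl3 had 19.4 and 44.7 units and lost its call with a pseudocount of 10, and Loxl4, at 1293 and 790.03, was not called. The lysyl hydroxylase Plod1 rose from 272 to 1126 units, while Plod2, Plod3 and P4ha1, which modify procollagen in the endoplasmic reticulum, differed by 0.53, −0.01 and 0.16 and were not called. Hyaluronan genes gave 3 calls among 13, Has2, the link protein gene Hapln4 (from 1.41 to 42.4 units) and the proteoglycan versican, Vcan (from 23.6 to 106 units). The other synthases Has1 and Has3 had at most 28.99 units on average, and the hyaluronan receptor Cd44 was high in both lines at 7239 and 11064.

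Of 34 matrix proteases and their inhibitors, 14 were called higher and 9 lower, again against 9.21% and 12.5% of all genes. The membrane-bound collagenase Mmp14 was at 0.882, 0.388, 0 and 0 units in VM-3055, against 146, 146, 167 and 154 in VIM-3039, and Mmp2, the gelatinase that it activates, rose from 0.19 to 29.99 units. Adamts5, an aggrecanase, rose from 96.5 to 9027 units (log2 difference 6.54 ± 0.057), while Adamts16, known from the kidney, fell from 92.9 to 6.70 units. The most abundant of the family, Adamts1, was at 34008 ± 1242 and 22127 ± 77.2 units (SD, n = 4) and was not called, and of the inhibitors Timp1 rose from 396 to 1389 units. The lower calls rested on the setting. With a pseudocount of 10 the list had 11 higher and 2 lower calls, with a mean of at least 10 units 12 and 3, and under limma treat, a test against a log2 difference of 1, 11 and 4.

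Matrix glycoproteins gave 11 higher and 6 lower calls among 34 (9.21% and 12.5% of all genes). Thbs1, an activator of latent TGF-beta, was at 43551, 48145, 39869.8 and 42496 units in VM-3055, against 143508, 136094, 136164 and 145744 in VIM-3039, and Fbln2 and Ltbp2, which belong to elastic microfibrils, rose from 14.1 to 969 units and from 13.96 to 327 units. Ctgf, a matricellular growth factor, rose from 7837 to 49934 units, while Fbln1 and Nov fell from 181 to 17.6 units and from 30.2 to 4.60 units. Fn1 differed by 0.79 ± 0.093 and stayed under the size of a call. Of 33 integrin and laminin subunits 4 were called higher and 12 lower (median −0.58), where all genes had 9.21% and 12.5%. The fibronectin receptor chain Itga5 was at 1074, 1135, 1094 and 1012 units in VM-3055, against 10704, 9674, 10165 and 10714 in VIM-3039, and Itgb3 rose from 288 to 1093 units. Lama3, the alpha chain of the epithelial laminin of hemidesmosomes, fell from 153 to 2.52 units, and Itgb4, which binds it, fell from 74.2 to 13.1 units. The median of the glycoproteins was 0.29, and under limma treat the integrin and laminin list had 4 higher and 6 lower calls.

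**Figure D3:**
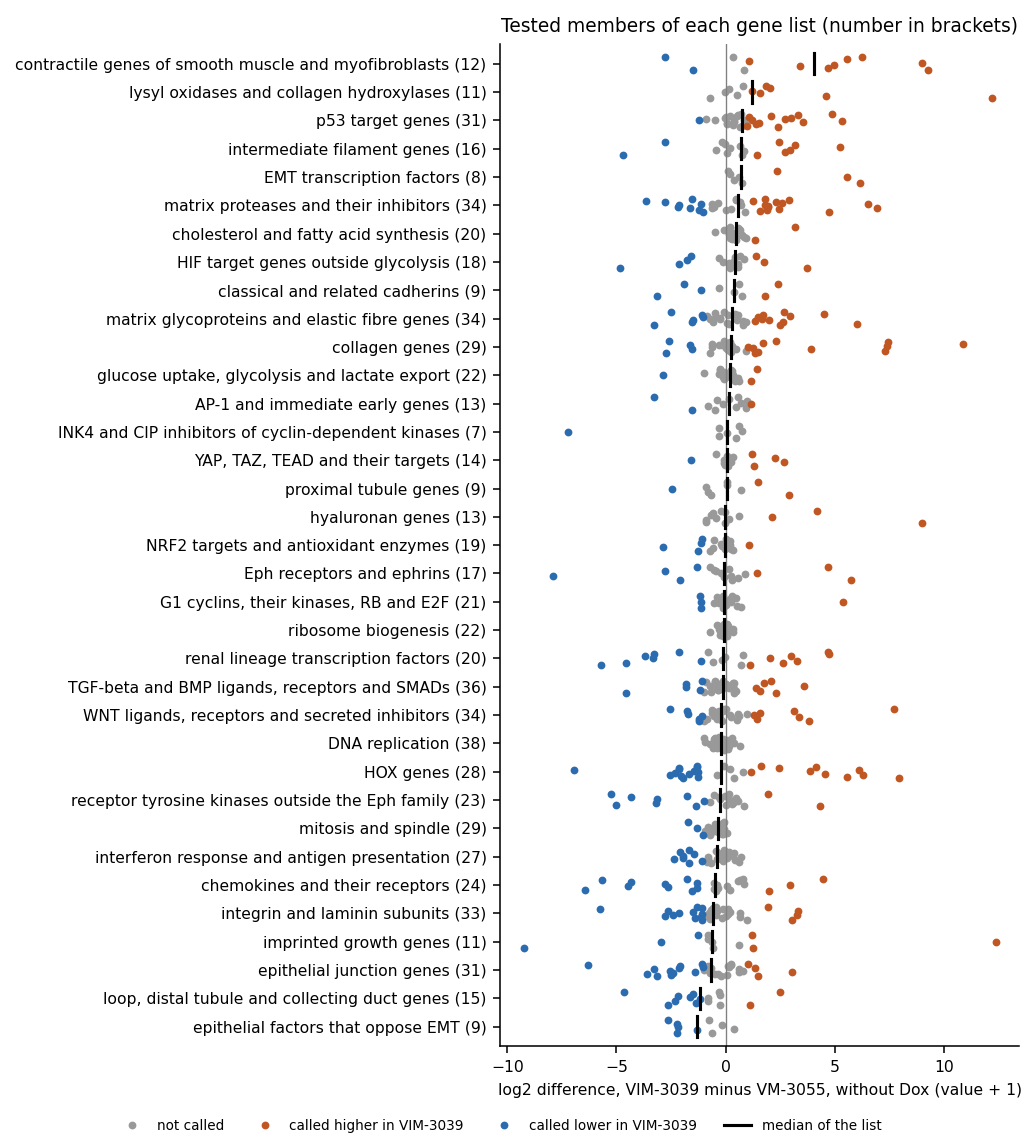
Log2 differences without Dox, VIM-3039 minus VM-3055, of the tested members of each gene list, 1 point per gene, orange where called higher, blue where called lower and grey where not called, with a black bar at the median of the list. The median of the contractile genes is 4.04, and ribosome biogenesis and DNA replication have no called member.

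EMT transcription factors gave 3 calls among 8, all higher in VIM-3039, against 9.21% of all genes. Snai2, known as Slug, was at 0.882, 0, 0 and 0.76 units in VM-3055, against 111, 76.9, 86.7 and 112 in VIM-3039, at least 36.5-fold higher. Twist1 was at 1.76, 0, 0 and 0.76 and 78.8, 70.2, 57.1 and 68.9, at least 25.99-fold higher. For both factors VM-3055 was at or under the floor. The other 5 members, all above 100 units, were not called: Snai1, at 147 and 246 units, differed by 0.75 ± 0.10, Twist2 by 0.39, Zeb1 by 0.62, Zeb2 by 0.22 and Tcf4 by 0.09. Adjusted p-values were 7.6e-06 for Snai1, 1.5e-07 for Zeb1 and 0.0069 for Zeb2 (limma), so these differences exceeded the spread between libraries but not the size of 1. Prrx1, the remaining call, had 0.485 and 6.29 units and lost it with a pseudocount of 10.

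Of 9 tested epithelial factors that oppose EMT, 5 were called lower, 0 higher and 4 neither (median −1.31), against 12.5% of all genes lower and 9.21% higher. The splicing regulator Esrp1 was at 257, 259, 257 and 256 units in VM-3055, against 51.2, 47.9, 59.2 and 66.4 in VIM-3039, Elf3 and Ehf, which belong to the ETS family of epithelia, fell from 312 to 68.4 units and from 29.2 to 3.86 units, and Ovol1 fell from 25.2 to 4.76 units. Esrp2, at 42.3 and 54.9 units, and Klf4, at 137 and 124, were not called. Among 31 epithelial junction genes tested, 12 were called lower and 4 higher, against 12.5% and 9.21% of all genes. Cldn19, a claudin of the thick ascending limb, fell from 131 to 0.889 units, the tight junction genes Ocln and Lsr fell from 173 to 14.2 units and from 1056 to 108 units, and Epcam fell from 215 to 37.9 units. Desmoplakin (Dsp, 1696 and 1319 units) and the scaffold Tjp1 (3584 and 3053) stayed high in both lines. Under limma treat the calls of the junction list fell to 10.

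Cadherins and intermediate filaments were mixed. E-cadherin (Cdh1) was at 370.4, 393, 332 and 409 units in VM-3055, against 42.7, 40.1, 44.9 and 39.8 in VIM-3039, 8.98-fold lower, while MYC-2983 had 267 on average. N-cadherin (Cdh2) and P-cadherin (Cdh3) rose from 2372 to 8339 units and from 426 to 2248 units, and Cdh6, a cadherin of the developing proximal tubule, fell from 3184 to 1442 units. Of the family 2 of 9 tested were called higher and 3 lower, against 9.21% and 12.5% of all genes. Vimentin (Vim) was at 28160.5, 30729, 29236 and 28686 units in VM-3055, against 78462, 75439, 77019 and 81851 in VIM-3039, high in both lines and higher in VIM-3039 by 1.42 ± 0.057. Keratins did not follow the junction genes. Krt19 and Krt18, keratins of simple epithelia, rose from 355 to 3226 units and from 5.63 to 229 units, while Krt7 and Krt17 fell from 466 to 17.2 units and from 544 to 79.8 units, and Krt8, the partner of Krt18, had 138 and 218 units and was not called.

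Genes of the p53 pathway were examined because Ink4a/Arf acts on it. Of 31 p53 target genes, 13 were called higher and 1 lower in VIM-3039, against 9.21% and 12.5% of all genes (median 0.77 against −0.073), and with Dox 19 were called higher, against 9.69% of all genes there. Trp53 itself (chr11:69393861-69405375, plus strand) was at 233, 224, 243 and 207 units in VM-3055, against 2207, 2144, 2236 and 2406 in VIM-3039, 9.92-fold higher (log2 difference 3.31 ± 0.057, adjusted p = 3.6e-17). MYC-2983 cells, where Ink4a/Arf is intact, had 147 to 176 units, near VM-3055. Eda2r, a death receptor of the TNF receptor family, rose from 6.67 to 297 units, Psrc1, a spindle protein, from 12.7 to 379.6 units, and Phlda3, an inhibitor of AKT, was at 104, 77.2, 109 and 111 against 1206, 1132, 1143 and 1238 units. Ccng1 and the stress cytokine Gdf15 rose from 1142 to 6006 units and from 1004 to 6583 units, and the pro-apoptotic Bax and Pmaip1 from 967 to 1937 units and from 2274 to 5889.7 units. The p53 antagonist Mdm2 and the cell cycle inhibitor Cdkn1a were higher by 0.68 ± 0.055 and 0.77 ± 0.046 and stayed under the size of a call, while Sesn1, a stress-induced regulator of mTORC1, fell from 445 to 194 units. Cdkn1a was called with Dox (2.12), and its interaction value of −1.35 was called (adjusted p = 8.3e-14). Whether p53 protein or its gene is altered in either line was not measured.

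Cell cycle genes beyond Cdkn2a mostly differed by less than the size of a call. Of 7 INK4 and CIP inhibitors Cdkn2a alone was called (Cdkn1c too without VIM-3039 replicate 1, at 1.76 and 4.65 units), and the adjacent Cdkn2b, which encodes p15Ink4b, had 645 ± 33.5 and 886 ± 37.5 units (SD, n = 4; log2 difference 0.46). Of the other neighbours on chromosome 4, Mtap had 3228 and 1611 units, a difference of −1.001 that passed the size of a call narrowly and not under quantile scaling (−0.96), median-of-ratios scaling or without VM-3055 replicate 1 (−0.9989) or 2 (−0.97) or VIM-3039 replicate 4 (−0.99), and Klhl9 and Mllt3 differed by −0.51 and −0.86. Among G1 genes Ccnd2, cyclin D2, was at 48.5, 48.9, 46.5 and 56.2 units in VM-3055, against 2218, 2004, 2102 and 2101 in VIM-3039, 42.1-fold higher, while Ccnd1 was at 2752 and 2541. E2f5, Cdk6 and E2f2 were called lower, at −1.18, −1.13 and −1.12, and lost the call under limma treat. None of 38 DNA replication genes was called, with differences from −0.99 to 0.69 and a median of −0.21. By limma 30 of them had an unadjusted p under 0.05 at any size. Over all genes, 9623 of 14461 had even an adjusted p under 0.05 by limma at any size. Limma voom on reads estimated from the low values called 0 of the replication genes. Tyms, thymidylate synthase, was called lower without VM-3055 replicate 1 or 4 or VIM-3039 replicate 3. Of 29 mitosis genes 3 were called lower, Ect2 (from 2089 to 641 units), Ccna2 (from 2425 to 973 units) and Ccnb1 (−1.01, not called under quantile scaling, −0.95, or without VIM-3039 replicate 1 or 4, −0.9962 and −0.95), and none higher. This is no more than the 12.5% of all genes called lower, and Ect2 and Ccna2 lie on chromosome 3, where most genes were lower. At any size the mitosis genes ran from −1.70 to 0.06 with a median of −0.34. By limma 25 of the 29 had an unadjusted p under 0.05. Their summed level was 43209 to 48830 units in VM-3055, against 32202 to 33714 in VIM-3039. Ribosome biogenesis genes, well-known MYC targets, gave no call among 22 members by limma or voom, 11 with an unadjusted p under 0.05, and a range of −0.71 to 0.36.

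HOX genes, whose clusters are expressed in the order of their position along the body axis, differed in most members. Of 28 tested, 10 were called higher and 13 lower, against 9.21% and 12.5% of all genes, and the 9 Hoxd genes in the table were near 0 in both lines. Low-numbered genes were mostly lower in VIM-3039, 12 of 21 from 1 to 9 with 5 higher, and high-numbered genes mostly higher, 5 of 7 from 10 to 13 with 1 lower. In the Hoxb cluster Hoxb2 was at 561, 523, 576 and 487 units in VM-3055, against 2.85, 3.34, 5.10 and 2.49 in VIM-3039, and Hoxb3 and Hoxb4 fell from 635 to 145 units and from 278 to 62.8 units. Its neighbours went the opposite way: Hoxb6 was at 0 in all 4 VM-3055 libraries and at 80.7, 68.00, 87.8 and 73.8 in VIM-3039, Hoxb9 rose from 127 to 1858 units, and Hoxb13 from 0.414 to 93.2 units. In the Hoxa cluster 8 of 11 genes were lower, such as Hoxa5 (from 950.3 to 161 units) and Hoxa7 (from 716 to 145 units), and Hoxa11 was at 0 in VM-3055 and at 240.2, 226, 272 and 250.3 in VIM-3039, at least 93.4-fold higher. Hoxa11 overlaps Hoxa11as on the other strand. In the Hoxc cluster the switch lay between Hoxc9 (from 202 to 80.3 units) and Hoxc10 (from 88.00 to 474 units). MYC-2983 cells had 819 to 863 units of Hoxb2 and 749 to 805 of Hoxb6 but 0.579 to 2.09 of Hoxa11. The split into numbers 1 to 9 and 10 to 13 was chosen after the values were seen.

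**Figure D4:**
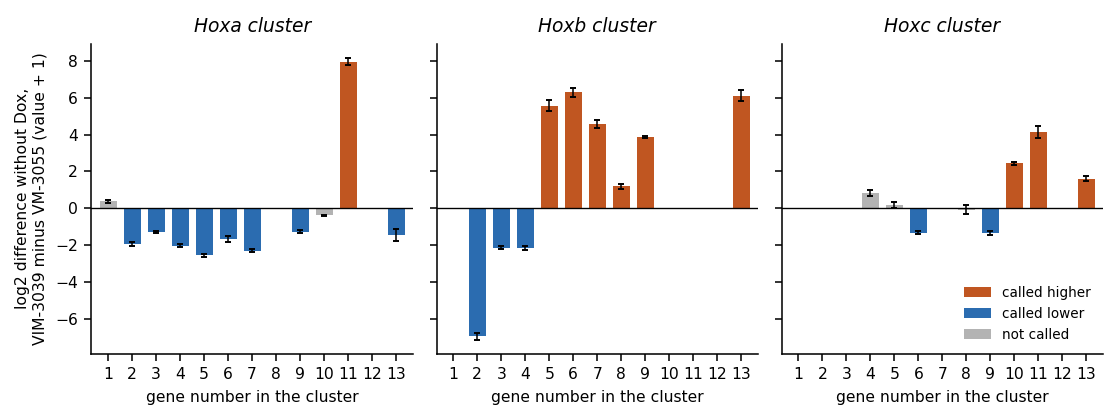
Log2 differences without Dox, VIM-3039 minus VM-3055 (bars, with limma standard errors), of the tested genes of the Hoxa, Hoxb and Hoxc clusters by gene number, orange where called higher, blue where called lower and grey where not called. A number without a bar has no tested gene, and in each cluster the called genes change from lower to higher as the number rises, with Hoxa13 as the exception.

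Of 20 renal lineage transcription factors 7 were called higher and 7 lower in VIM-3039, against 9.21% and 12.5% of all genes. Hnf4a, a regulator of the proximal tubule, was at 25.6, 17.1, 24.8 and 24.3 units in VM-3055 and at 0 throughout in VIM-3039. Sim1 and the distal factor Tfcp2l1 fell from 15.2 to 0.255 units and from 1399 to 322 units. On the other side Eya1 and Osr1, factors of the nephron progenitors and intermediate mesoderm, rose from 20.5 to 558 units and from 0 to 25.4 units, Emx2, which the ureteric bud requires, rose from 205 to 1263 units, and the AP-2 factor Tfap2a from 17.01 to 169 units. Pax2 and Pax8, which mark renal epithelium at large, differed by 0.71 and −0.56 and were not called. Terminal tubule genes were mostly off in both lines: 9 of 25 proximal genes could be tested, and 15 of 27 loop, distal and collecting duct genes. Of the proximal genes 2 were called higher and 1 lower. Gatm, which makes a creatine precursor, rose from 59.03 to 454 units, and the endocytic receptor Lrp2 was at 5763 and 3545 units. Of the loop, distal and collecting duct genes 8 were called lower, all at under 30 units in VM-3055, and 2 higher. Over all genes the shares were 12.5% and 9.21%. The distal calls fell to 2 with a pseudocount of 10.

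Receptors for growth factors were examined next. Of 23 receptor tyrosine kinases outside the Eph family, 8 were called lower and 2 higher, against 12.5% and 9.21% of all genes, so the share of higher calls was near that of all genes. Ror2, a receptor for WNT5A, was at 225, 215, 226 and 223 units in VM-3055, against 2.85, 8.92, 5.10 and 4.15 in VIM-3039, Erbb4 fell from 494 to 14.6 units and Fgfr4 from 89.9 to 5.57 units. Met, the receptor for hepatocyte growth factor and a driver of papillary renal cancer, was high in both lines and fell from 11469 to 4547 units (log2 difference −1.33 ± 0.053), while Axl was at 9581 and 12326 and was not called. Pdgfrb, a receptor of mesenchymal cells, rose from 2.27 to 64.9 units. In the Eph family Ephb1 was at 258, 238, 238 and 218 units in VM-3055 and 0 throughout VIM-3039, whereas Epha7 was at 0 in VM-3055 and at 52.2, 50.2, 54.1 and 58.1 in VIM-3039, and the ligand Efnb2 rose from 76.2 to 2015 units.

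Of the TGF-beta family ligands, Tgfb1, Tgfb2 and Tgfb3 rose from 99.4 to 499 units, from 448 to 1353 units and from 287 to 766 units, and Inhba, the activin A subunit, was at 169, 191, 158 and 159 units in VM-3055, against 2316, 1816, 1984 and 2114 in VIM-3039. The antagonists Fst and Grem1 rose too, from 174 to 732 units and from 44.4 to 154 units, while Bmp7, a ligand that keeps renal epithelium epithelial, fell from 128 to 5.05 units, and Inhbb, the activin B subunit, from 968 to 433 units. None of the type I and II receptors was called, and of the SMADs Smad9 alone was (from 678 to 193 units). The whole list had 6 of 36 called higher and 5 lower, with a median of −0.14, beside 9.21% and 12.5% of all genes, so the share of lower calls was near that of all genes. In the WNT list 7 of 34 were higher and 6 lower, with 8 calls in all under a pseudocount of 10, and the largest rise was the secreted Dkk3, at 19.4, 17.4, 21.7 and 15.95 units in VM-3055, against 4177, 4027, 4122 and 4211 in VIM-3039. Of 14 genes around YAP and TAZ, Ctgf, Ankrd1 (from 4978 to 24117 units), Tead3 and Nuak2 were called higher, Wwtr1, which encodes TAZ, was lower (from 4847 to 1610.4 units), and the classical target Cyr61 had 21791 and 20786 units.

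Chemokine and interferon genes, which signal to and mark immune responses, formed a further group. Of 24 chemokines and receptors tested, 10 were called lower and 3 higher, against 12.5% and 9.21% of all genes. The neutrophil attractant Cxcl2 was at 220.5, 236, 212 and 199 units in VM-3055, against 0.949, 2.23, 0 and 4.98 in VIM-3039, Ccl20 fell from 171 to 8.73 units, Cxcl11 fell from 21.8 to 0 units and the scavenging receptor Cxcr7 fell from 154 to 2.26 units. The monocyte attractants Ccl2, Ccl7 and Ccl9 rose from 199 to 787 units, from 0.674 to 11.8 units and from 2.39 to 73.7 units. Of 27 interferon and antigen presentation genes 8 were called lower, such as Gbp2 (from 487 to 115 units) and Tap2 (from 122 to 31.5 units), and none higher, and the calls fell to 4 with a pseudocount of 10 and to 4 under limma treat, while B2m and H2-K1 were at 7213 and 1693 units in VM-3055 and 6793 and 1895 in VIM-3039. Of the 8 leukocyte markers tested, Ptprc, Cd68, Csf1r and Itgam were called lower in VIM-3039 as well and the other 4 were not called. Log2 differences of the 8 ran from −2.75 to 1.05. Their summed levels are given above, and their part in the chemokine and interferon differences was not tested. Of AP-1 and immediate early genes, Egr1 and Egr3 were called lower (from 1553 to 539 units and from 26.96 to 1.97 units) and Ier3 higher, and without VIM-3039 replicate 3 the calls rose to 5 with Fosb and Jund.

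Of 18 HIF target genes outside glycolysis, 3 were called higher and 4 lower, where all genes had 9.21% and 12.5%. Car9, the carbonic anhydrase used as a marker of clear cell tumours, was at 404, 376, 419 and 387 units in VM-3055, against 11.4, 23.4, 5.10 and 19.9 in VIM-3039, 26.5-fold lower, and Egln3 and Ndrg1 fell from 5597 to 1629 units and from 2633 to 882 units. Adm and Edn1, peptides that act on vessels, rose from 45.7 to 613 units and from 270.3 to 918 units, and Vegfa was at 3971 ± 131 and 4537 ± 215 units (SD, n = 4). Of 22 genes from glucose uptake to lactate export, Pfkm (from 250.1 to 682 units) and Hk1 (from 1678 to 3731 units) were higher and Aldoc (from 577 to 77.9 units) lower, and without VIM-3039 replicate 2 the calls rose to 5 with Eno2 and Slc2a3. The abundant Ldha, Aldoa and Pgk1 differed by −0.06, 0.22 and 0.05. In lipid synthesis Scd1, the stearoyl-CoA desaturase, was at 728, 741, 698 and 788 units in VM-3055, against 6612, 6799, 6510.2 and 6680.3 in VIM-3039, and Mvd rose from 483 to 1234 units, and the other 18 of 20 were not called. The share of higher calls was near the 9.21% of all genes. At any size the list had a median of 0.48, and 19 of 20 had an unadjusted p under 0.05 by limma. Over all genes 9623 of 14461 had an adjusted p under 0.05 by limma at any size. The summed level was 66852 to 68838 units in VM-3055, against 91000 to 94910 in VIM-3039. NRF2 targets gave 1 higher call, Hmox1, and 4 lower calls among 19, and 2 calls in all under limma treat.

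Imprinted genes held some of the largest differences in both directions. Beside Grb10 and Peg3, Peg10, a retrotransposon-derived placental gene, was at 11048, 12936, 9972 and 11054 units in VM-3055, against 1464, 1601, 1343 and 1448 in VIM-3039, Plagl1 fell from 264 to 108 units and Mest rose from 154 to 361 units. H19 was called higher from 0.895 to 3.93 units and lost the call with a pseudocount of 10, and Igf2 was at 2.51 and 1.53. In MYC-2983 cells Grb10 was at 529 to 592, Peg3 at 1.16 to 5.07 and Peg10 at 3588 to 3845 units. Allele-specific reads were not analysed here.

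Differences were also unequal between chromosomes. In the 10692 tested genes whose mean reached 50 units, the median log2 difference was −0.05, and on chromosome 3 it was −0.62 over 523 genes, 87.6% of which were lower in VIM-3039. Of all tested genes on chromosome 3, 29.4% were called lower and 6.88% higher. The medians of chromosomes 5 and 14 were −0.34 and −0.23, and that of chromosome 8 was 0.28, while the other chromosomes lay between −0.11 and 0.11. Along chromosome 3 all 8 windows of 20 Mb with at least 20 genes had a median under 0, from −1.36 to −0.39, and along chromosome 8 all 7 had one above 0, from 0.16 to 0.43. With Dox the same genes had medians of −0.52 on chromosome 3, −0.23 on chromosome 5 and 0.33 on chromosome 8. Set against MYC-2983 without Dox, chromosome 3 had a median of −0.70 in VIM-3039 minus MYC-2983 and 0.11 in MYC-2983 minus VM-3055. Chromosome 5 had −0.01 and −0.31, so there VM-3055 was the line that stood apart. Chromosome 8 had −0.22 and 0.50, with VIM-3039 between the other lines. Genes of 1 chromosome are not replicates, so these medians are given without a test, and DNA was not measured. Of the called genes named above, Ccna2, Ect2, E2f5, Gbp2, Smad9 and Wwtr1 lie on chromosome 3 and were lower, and Psrc1 lies there and was higher. Genes named without a call are not listed here by chromosome. Their values were not corrected for the shift of the chromosome.

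**Figure D5:**
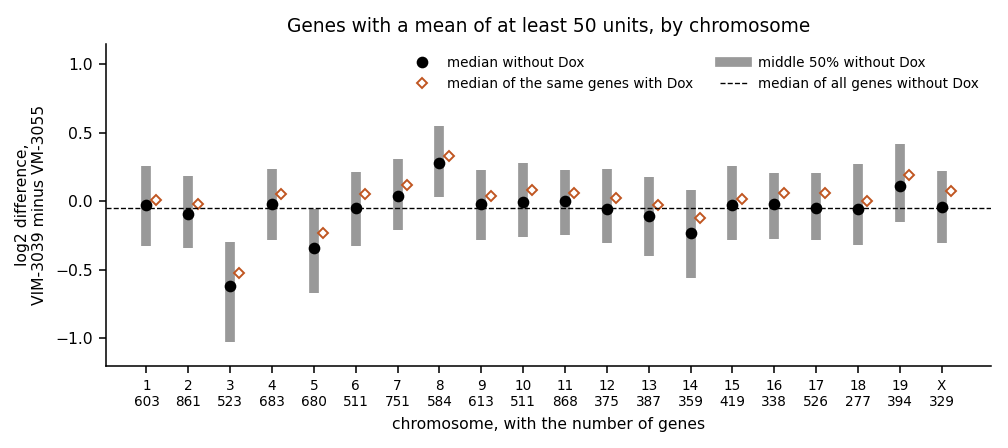
Median log2 difference, VIM-3039 minus VM-3055, by chromosome, over genes whose mean reached 50 units, without Dox (black points, grey bars for the middle 50% of genes) and of the same genes with Dox (orange diamonds), with the number of genes under each chromosome. Chromosome 3 lies at −0.62 and chromosome 8 at 0.28, away from the dashed median of all genes.

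The same lines were also compared with Dox, where the transgene is on. There 1363 genes (9.69%) were called higher and 1328 (9.45%) lower in VIM-3039. Of the 1332 genes higher without Dox, 984 (73.9%) were also called higher with Dox, which is 72.2% of those, and of the 1809 lower, 1065 (58.9%) were also called lower, which is 80.2% of those. A call in the opposite direction with Dox was made for 4 and 4 genes. The test of the difference itself, the line by Dox interaction over 16 libraries, called 356 of 15180 genes (2.35%) where the VIM-3039 minus VM-3055 difference was higher without Dox than with it, and 562 (3.7%) where it was lower. The split depended on scaling: the first of these directions held 38.8% of the calls with the authors' scaling, 51.2% after quantile normalization and 44.4% after median-of-ratios rescaling.

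The genes with the largest interaction values are described next. Nr1h5, a nuclear receptor that binds lanosterol, was at 2.65, 10.9, 2.33 and 8.36 units in VM-3055, against 19.9, 8.92, 10.2 and 29.9 in VIM-3039 without Dox, but at 546, 387, 372 and 374 in VIM-3039 with Dox (interaction −6.84 ± 0.55, adjusted p = 3.2e-09). Ccnb1ip1, a meiotic crossover gene, was at 0 in all VM-3055 libraries, at 6.88 units in VIM-3039 without and at 315 with Dox. Both had thus a small excess in VIM-3039 without Dox and a large excess with it. Cldn19, St8sia2 and Cxcr7 were high in VM-3055 without Dox, at 131, 563 and 154 units, and at 6.28, 34.02 and 2.25 with Dox, so that the deficit of VIM-3039 was larger without Dox. Akr1c19, an aldo-keto reductase, was higher in VIM-3039 without Dox and lower with it, at 20.3, 19.8, 12.4 and 15.95 and 55.04, 51.3, 46.9 and 48.9 units without Dox, and at 94.6, 81.7, 100.2 and 96.5 and 12.5, 9.71, 15.1 and 8.08 with Dox, in VM-3055 and VIM-3039. Epha8 was near 0 in both lines without Dox and at 59.2 units in VM-3055 with Dox, and the sulfotransferase gene Sult1d1 had 15.3 units in VM-3055 without and 195 with Dox, and at most 2.42 units in any VIM-3039 library.

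Gene lists were compared in the same way. Of the 31 p53 targets 5 were called in the interaction with a smaller excess in VIM-3039 without Dox, Eda2r (−1.80), Trp53inp1 (−1.95), Cdkn1a, Dcxr and Ccng1, against 3.7% of all genes in that direction, and none with a larger excess. Of the 28 HOX genes tested, 0 were called in the interaction by limma and 12 had an unadjusted p under 0.05. Over all genes, 5053 of 15180 had an adjusted p under 0.05 there by limma, at any size. The differences of Hoxb2 (−6.95 without and −6.99 with Dox) and Hoxa11 (7.95 and 8.21) lay side by side. Lox, at 2071 units in VIM-3039 with Dox, had an interaction value of 1.41 ± 0.28 and Has2 one of 0.47 ± 0.29, of which the first was called.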

How the data were processed

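RNA was sequenced by the authors from stranded TruSeq paired-end libraries, aligned with MapSplice to the mm9 genome and estimated per gene with RSEM on UCSC knownGene, with Picard 1.64 and SAMtools among the tools in the submitters' processing notes. The authors brought the upper quartile of every library to 1000, and the deposited signal values are these scaled estimates, for 21705 genes and 38 libraries. Whether counting used strand is not given in the sources used here. Count tests were not used, since the values are not counts and not all of them could be traced back to whole reads. The limma voom alternative therefore ran on estimated reads.

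Genes with a value over 0 in 4 or more compared libraries were tested on log2(value + 1) with limma 3.58.1 (R 4.3.3, moderated variance with a trend, two-sided) and adjusted by Benjamini-Hochberg over all genes tested. A call needed an adjusted p under 0.05 and a log2 difference over 1, and fold changes on this scale understate those of low genes. Vhl, Cdkn2a and Myc also had an exact permutation test. Reads were estimated from the steps of the low values to set the floor of 3 reads per library. Where every library of a line was at or under the floor, the highest floor of that line stood in for its level. Depth covers counting error only.

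Tested on simulated data for the comparison without Dox (14655 genes), the fit recovered 200 of 200 changed genes and called 2 others. The changed genes had means of at least 50 units and changes beyond the size of a call, with the same spread setting for all genes. Recovery of low genes or of changes near the size of a call was therefore not tested. No replicate pair agreed within sampling noise.

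The members and lists were chosen with earlier results of these data known. Genes were named by rule: the engineered genes, the 10 largest rises and falls with at least 50 units in the higher line and no overlap, the 3 largest called rises and falls of each list with the members that name it, and the 5 largest interaction values in each direction. Other genes were named after their values were seen. Alternatives were other pseudocounts, filters, scalings and tests, a replicate block, and each library left out.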

Additional observations from a re-analysis of the deposited data

Results flagged for a closer look

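Genes were marked where the VIM-3039 minus VM-3055 difference itself changed with Dox, by the line by Dox interaction of limma over 16 libraries (4 per line and medium). Values are the log2 difference without Dox minus that with Dox, so a positive value means that VIM-3039 stood higher relative to VM-3055 without Dox. Among the 10 largest rises without Dox, Lox (1.41, adjusted p = 4.6e-04), Acta2 (1.05, adjusted p = 0.0089), Myl9 (2.598, adjusted p = 2.0e-05) and Gulp1 (1.16, adjusted p = 0.0019) had a larger excess without Dox. Among the 10 largest falls, the deficit was larger without Dox for Iapp (−1.24, adjusted p = 0.044), Peg3 (−1.197, adjusted p = 0.0037), St8sia2 (−4.05, adjusted p = 1.4e-09), Dsg1a (−1.37, adjusted p = 0.0028), Sectm1a (−1.06, adjusted p = 0.0023) and Dsg1b (−1.18, adjusted p = 0.0098). VM-3055 levels of Lox, Myl9 and Gulp1 and VIM-3039 levels of Peg3, St8sia2, Dsg1a and Dsg1b were at or near the floor without Dox, so these values depend on the pseudocount.

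Of genes that reached 50 units on average in any of the 4 groups, the 5 largest positive values were those of Epha8 (4.56, adjusted p = 1.4e-06), Akr1c19 (4.49, adjusted p = 4.9e-11), Actg2 (3.51, adjusted p = 1.1e-05), Sult1d1 (3.43, adjusted p = 1.5e-05) and Lmod1 (3.399, adjusted p = 9.1e-07). The largest negative values there, beside St8sia2, were those of Nr1h5 (−6.84, adjusted p = 3.2e-09), Ccnb1ip1 (−5.41, adjusted p = 3.9e-10), Cldn19 (−4.39, adjusted p = 1.2e-05) and Cxcr7 (−4.02, adjusted p = 2.4e-07). Without Dox, VM-3055 levels of Actg2, Lmod1 and Ccnb1ip1 and VIM-3039 levels of Sult1d1, Cldn19 and Cxcr7 were at or near the floor. Epha8 was near 0 in both lines without Dox. The interaction values of these genes depend on the pseudocount too. A check for single libraries far from the other 3 of their group, over 44 groups of 32 genes, found none, where chance gives about 1 in 20 groups.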

How the results depend on the processing

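The 3141 calls without Dox became 1981 with a pseudocount of 10 and 1889 under limma treat, a test against a log2 difference of 1. Pseudocount 0.1, both filters, both rescalings, voom, unmoderated variance and the fit over 16 libraries gave counts within 1.5 times, and leaving out 1 library gave 3088 to 3138. The furthest of these was the filter of a mean of at least 10 units, with 2148 calls, 973 higher and 1175 lower, among 12018 genes. The 918 interaction calls became 458 with a pseudocount of 10 and 541 with a mean of at least 10 units, and 834 to 891 with 1 library left out. Of the 3 engineered genes 1 to 2 were called with 1 library left out, the second being Vhl without VIM-3039 replicate 4. Named genes were mostly picked as the largest called differences of these data, which favours keeping the call and says little about other genes. Over 180 named genes and 3391 values under the alternatives, 3326 kept direction and call, 64 kept direction and lost the call, 1 gained it and 0 reversed. The cause of these changes was not tested. Genes under 50 units, and fold sizes where a line is silent, are limited by depth.

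Replicate numbers did not pair the samples: correlations between same-numbered libraries of the lines ran from −0.0019 to 0.065, against −0.13 to 0.095 for other numbers, and 1 of 4 VM-3055 libraries correlated best with its own number. With the replicate number as a block there were 3161 calls without Dox, 2696 with Dox (against 2691) and 869 in the interaction.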
